A study of Mus musculus with 2 samples.

Results

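The DNA replication and G1/S genes described here are 42 of the 32285 genes counted by single-cell RNA sequencing in mouse colorectal tumours. They were taken by symbol from a list chosen for known function, and every one was present in both libraries. They fall into 7 roles, namely licensing and origin firing (14 genes), polymerase and primase (5), the clamp, its loader and single-strand binding (6), joining of the lagging strand (2), nucleotide supply (5), chromatin and methylation at the fork (6) and regulators of the G1/S step (4).

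The tumours had been induced in both genotypes by AOM-DSS, the carcinogen azoxymethane followed by dextran sulfate sodium, an agent that injures the colonic lining. The cKO library comes from Mtch2fl/fl VilCre mice, in which Cre recombinase under the Villin promoter acts on floxed Mtch2 in the intestinal epithelium, and the WT library comes from Mtch2fl/fl mice without Cre. Mtch2 encodes a protein of the outer mitochondrial membrane, and the series concerns its loss in these tumours together with the transcription factor E2F4 and iron-dependent cell death. Fresh tumours of each genotype were pooled before trypsin dissociation, so 1 library stands for each genotype, the genotypes could not be tested against each other, and every interval below covers counting error only. Other cell types keep their Mtch2 by design, the labels give no ages, and both pools held cells of both sexes.

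Before DNA is copied, the MCM2-7 helicase is loaded at origins by CDC6 and CDT1, a step called licensing. At the G1/S transition cyclin E kinases and the release of E2F transcription factors from RB family proteins switch on a shared set of genes, among them those of the helicase, the polymerases and the enzymes that supply nucleotides. In the intestinal lining these genes are active in the dividing cells of the crypt and fall silent as cells differentiate.

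The promoters of 5 members are shown because the E2F site is the sequence by which this gene set is usually recognised. RefSeq promoters of GRCm38.p6 were matched for 35 of the 42 members, all but Mcm4, Gins1, Gins2, Gins4, Pole, Rfc2 and Ccne2. Each line gives the 250 bases before the RefSeq start on the gene's own strand, 5′ to 3′, and capitals mark matches on either strand to TTTCCCGC, TTTGGCGC, TTTGCCGC or TTTCGCGC, overlapping matches included. Mcm6 had the most matches of any member, Mcm5 and Pola1 also had matches within the printed bases, and Fen1 and Slbp had none. All 5 stretches lie outside the gene as the annotation draws it, which held for 17 of the 35, while 18 overlapped it by at least 1 base.
Mcm6, chr1:128359706-128359955, minus strand: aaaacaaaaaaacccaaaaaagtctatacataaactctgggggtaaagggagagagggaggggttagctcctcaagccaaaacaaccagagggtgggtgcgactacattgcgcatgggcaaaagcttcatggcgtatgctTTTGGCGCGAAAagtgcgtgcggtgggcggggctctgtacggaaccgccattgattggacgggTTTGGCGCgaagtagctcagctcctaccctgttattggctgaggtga
Mcm5, chr8:75109259-75109508, plus strand: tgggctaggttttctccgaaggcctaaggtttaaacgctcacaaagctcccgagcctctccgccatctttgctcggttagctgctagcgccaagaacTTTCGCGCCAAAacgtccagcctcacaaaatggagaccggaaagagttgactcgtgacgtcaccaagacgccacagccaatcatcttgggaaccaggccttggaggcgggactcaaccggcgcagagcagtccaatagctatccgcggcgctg
Pola1, chrX:93632156-93632405, minus strand: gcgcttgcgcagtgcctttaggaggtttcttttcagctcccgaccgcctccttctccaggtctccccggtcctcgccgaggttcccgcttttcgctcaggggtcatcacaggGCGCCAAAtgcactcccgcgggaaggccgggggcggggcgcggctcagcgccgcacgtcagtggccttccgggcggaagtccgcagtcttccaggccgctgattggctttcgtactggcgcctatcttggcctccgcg
Fen1, chr19:10204394-10204643, minus strand: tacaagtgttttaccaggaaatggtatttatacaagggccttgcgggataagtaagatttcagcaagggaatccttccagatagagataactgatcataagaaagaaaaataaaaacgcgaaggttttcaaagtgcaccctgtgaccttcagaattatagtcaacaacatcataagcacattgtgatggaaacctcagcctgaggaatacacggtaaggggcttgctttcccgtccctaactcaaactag
Slbp, chr5:33652575-33652824, minus strand: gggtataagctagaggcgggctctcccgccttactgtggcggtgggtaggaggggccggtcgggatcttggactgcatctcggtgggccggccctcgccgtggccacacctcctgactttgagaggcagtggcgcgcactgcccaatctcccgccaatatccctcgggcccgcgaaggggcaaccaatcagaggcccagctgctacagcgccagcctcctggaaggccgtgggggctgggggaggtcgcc

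In windows that reach 50 bases past the start, 12 of the 35 matched members (34.3%) held at least 1 of these E2F motifs, against 2.32% of 27025 promoters of all genes. The 12 were Mcm3, Mcm5, Mcm6, Mcm7, Cdc6, Cdt1, Gins3, Pola1, Pold1, Rfc3, Hells and Pclaf. In Mcm6 the matches began 110, 106 and 47 bases before the start, and the first pair overlap. The Mcm5 pair, at 153 and 149 bases before the start, also overlap, and the Pola1 match began 138 bases before it. Of a list of 42 G2 and M phase genes, 37 had a promoter, and 1 of them (2.70%) held an E2F motif. The CHR motif of late cell cycle promoters (TTTGAA or TTCGAA) had the opposite distribution, in 31 of those 37 (83.8%), in 7 of the 35 members (20%) and in 19.4% of all promoters. CCAAT stood in 57.1% of the members' windows and 37.9% of all windows, and GGGCGG in 68.6% of the members' and 35.9% of all windows. These are matches of letters, not measured sites.

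The libraries held 97364087 UMIs (unique molecular identifiers, 1 per captured RNA molecule) in 6723 cKO barcodes and 116066712 UMIs in 9445 WT barcodes, and 4388 cKO and 7245 WT cells passed the filters. Epithelial-like cells numbered 1997 in cKO and 2946 in WT, with medians of 27783 UMIs in cKO and 23734.5 UMIs in WT. Epcam and Krt8 are among the 10 epithelial markers by which these clusters were named, so their levels describe the cells and do not test the label. Epcam had 2267 UMIs per 1000000 UMIs (CPM) in cKO and 2261 CPM in WT, and Krt8 had 2690 CPM in cKO and 3138 CPM in WT. Mtch2 itself had 23.5 CPM in cKO epithelial-like cells, against 93.4 CPM in WT, a log2 ratio of -1.99 (95% interval -2.07 to -1.92). Unnamed cells were 13.4% of the cKO and 40.5% of the WT cells, mostly a cluster with medians of 718.5 UMIs in cKO and 735 UMIs in WT, and were left out. The 10 epithelial markers summed to 10281 CPM in cKO and 12349 CPM in WT in them. In epithelial-like cells they summed to 11663 CPM in cKO and 12556 CPM in WT. What leaving the unnamed cells out did to the members' values was not tested. Among epithelial-like cells, cells with Xist and no Y-linked UMIs were 16.0% of cKO and 31.4% of WT, and cells with Y-linked UMIs and no Xist were 57.7% of cKO and 37.4% of WT. Cells with both were 13.6% of cKO and 22.0% of WT, and cells with neither were 12.8% of cKO and 9.13% of WT. The values by sex given below leave these cells out. Markers of other cell types differed in the same cells, in both directions. The 8 neutrophil markers summed to 116 CPM in cKO and 48.0 CPM in WT and the 5 erythroid markers to 105 CPM in cKO and 7.07 CPM in WT. Lower in cKO were the macrophage and monocyte markers, at 50.8 CPM in cKO and 92.5 CPM in WT. So were the mast and basophil markers (33.2 CPM in cKO and 56.1 CPM in WT) and the endothelial markers (33.2 CPM in cKO and 45.5 CPM in WT). All 8 goblet and all 5 Paneth-type genes were lower in cKO, such as Spink4 with 579 CPM in cKO and 1267 CPM in WT and Lyz1 with 422 CPM in cKO and 1228 CPM in WT. The part of these in the members' values was not tested. The libraries shared 22 barcodes, 14 of them among kept cells.

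In the epithelial-like cells as a whole the 42 genes together took 1147 CPM in cKO (1139 to 1155) and 971 CPM in WT (965 to 977), a 1.18-fold higher level in cKO (log2 0.24, 0.23 to 0.25). Of the 34 members measured, meaning at 10 CPM or more in either library, 32 were higher in cKO, where 44.6% of all 9397 measured genes were higher. The median log2 ratio of the measured members was 0.28, beside -0.02 for all genes. At 1.2-fold or more, 18 members were higher in cKO, against 4.74% of all genes, and none reached 1.5-fold (0.851% of all genes). Without the filter, 40 of 42 were higher. The size of the difference varied with how cells and clusters were weighted, and the cause of that was not tested. Clusters 7 and 8, both shallow, held 1.10% and 1.43% of epithelial-like UMIs in cKO, and 1.73% and 1.35% in WT. Giving all 9 epithelial-like clusters equal weight brought the log2 ratio of the sum to 0.0092 and left 16 members higher. Weighting each cell equally gave 0.14, and giving both libraries the WT share of mitotic UMIs, an alternative added after the data were seen, gave 0.15.

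**Figure D1:**
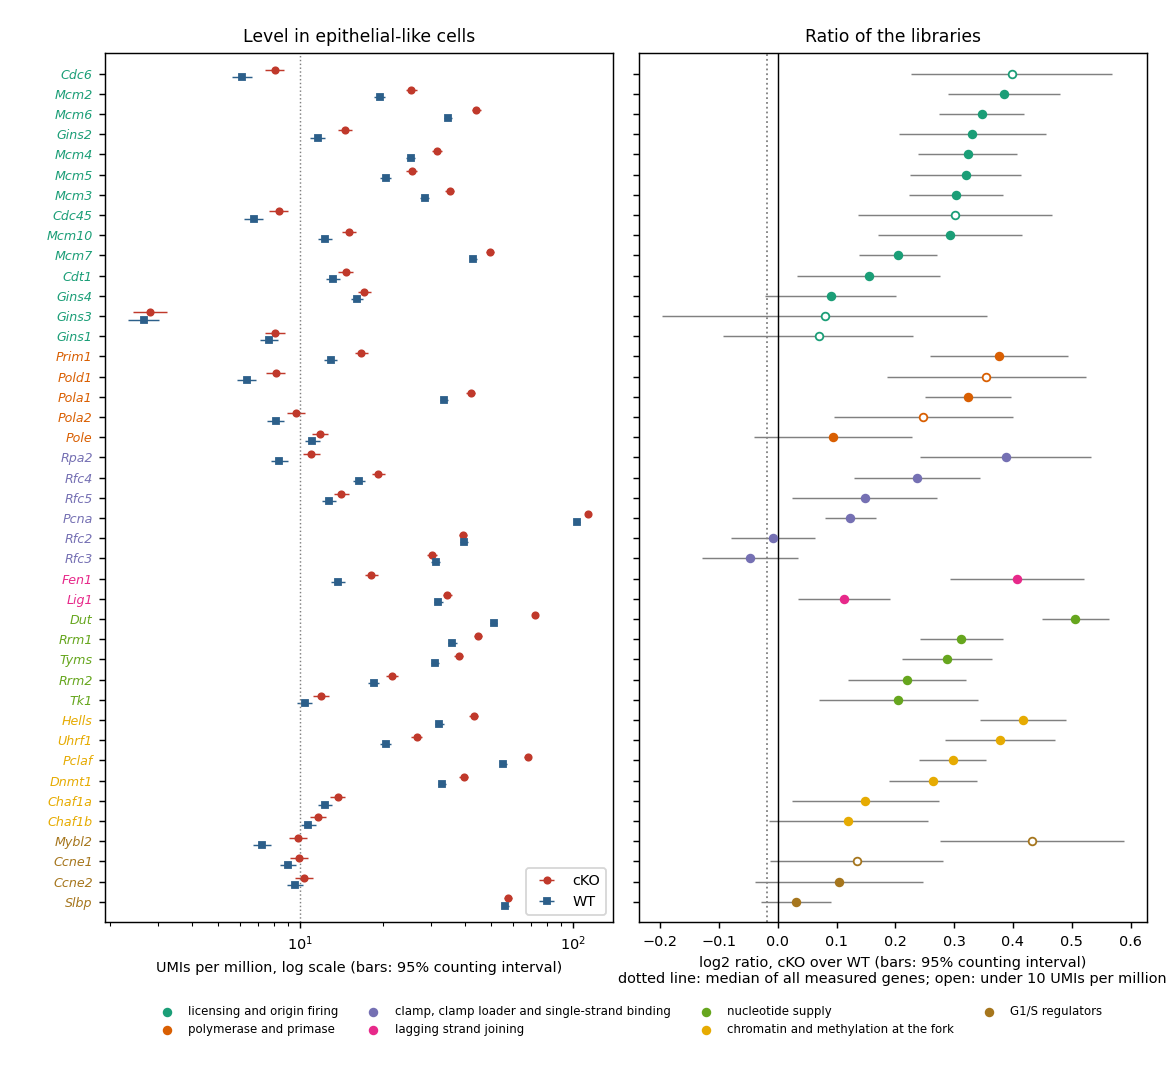
Levels of the 42 members in epithelial-like cells of cKO and WT (left, CPM on a log axis) and their log2 ratio of cKO over WT (right), grouped by role, with 95% counting intervals. The measured members, drawn filled, lie to the right of 0 except Rfc2 and Rfc3, and Dut has the highest ratio, 0.51.

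Among the licensing and origin firing genes, 10 of 14 were measured and all 10 were higher in cKO (median log2 ratio 0.31). Mcm6, a subunit of the replicative helicase, had 44.1 CPM in cKO and 34.7 CPM in WT (log2 0.35, 0.27 to 0.42). The other subunits lay close to it, with log2 ratios of 0.38 for Mcm2, 0.32 for Mcm4 and Mcm5, 0.30 for Mcm3 and 0.21 for Mcm7. All 6 subunits were therefore higher in cKO, by 0.21 to 0.38. Cdc6, the helicase loader, had 8.05 CPM in cKO and 6.11 CPM in WT (0.40, 0.23 to 0.57) and Cdt1, its partner, had 14.6 CPM in cKO and 13.2 CPM in WT (0.15, 0.03 to 0.28). Mcm10, which helps to activate the loaded helicase, had 15.0 CPM in cKO and 12.3 CPM in WT (0.29, 0.17 to 0.41), and Cdc45, a subunit of the active helicase, had 8.32 CPM in cKO and 6.75 CPM in WT (0.30, 0.14 to 0.47). The GINS complex, the remaining part of the active helicase, was uneven. Gins2 had 14.6 CPM in cKO and 11.6 CPM in WT (0.33, 0.21 to 0.46), while Gins1 (8.07 CPM in cKO and 7.70 CPM in WT), Gins3 (2.82 CPM in cKO and 2.67 CPM in WT) and Gins4 (17.2 CPM in cKO and 16.1 CPM in WT) had log2 ratios of 0.07, 0.08 and 0.09 with intervals that include 0.

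The polymerase and primase genes had 3 of 5 members measured, all higher in cKO. Pola1, the catalytic subunit of DNA polymerase alpha, had 42.02 CPM in cKO and 33.6 CPM in WT (log2 0.32, 0.25 to 0.40). Prim1, the primase that lays down the RNA primer, had 16.7 CPM in cKO and 12.9 CPM in WT (0.38, 0.26 to 0.49). These start new strands, and both had intervals above 0, whereas Pole, the catalytic subunit of the leading-strand polymerase, had 11.8 CPM in cKO and 11.1 CPM in WT (0.09, -0.04 to 0.23). Pold1, of the lagging-strand polymerase, had 8.12 CPM in cKO and 6.35 CPM in WT (0.35, 0.19 to 0.52).

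The clamp and clamp loader genes contained both measured members that were not higher in cKO. Rfc3, a subunit of the loader that places the clamp on DNA, had 30.3 CPM in cKO and 31.3 CPM in WT (log2 -0.05, -0.13 to 0.03), and Rfc2, of the same loader, had 39.4 CPM in cKO and 39.6 CPM in WT (-0.01, -0.08 to 0.06). Rfc4 and Rfc5, also of the loader, had log2 ratios of 0.24 (0.13 to 0.34) and 0.15 (0.02 to 0.27), so the subunits of this complex differed among themselves. Pcna, the sliding clamp itself, had 113 CPM in cKO and 103 CPM in WT (0.12, 0.08 to 0.17). Rpa2, which coats single-stranded DNA, had a ratio well above the clamp's, at 11.0 CPM in cKO and 8.37 CPM in WT (0.39, 0.24 to 0.53).

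The nucleotide supply genes were all measured and all higher in cKO, each with an interval above 0. Dut, the enzyme that destroys dUTP and so keeps uracil out of DNA, had the highest ratio of the 42, at 72.4 CPM in cKO and 51.0 CPM in WT (log2 0.51, 0.45 to 0.56). Rrm1 and Rrm2, the subunits of ribonucleotide reductase, differed alike, with 44.8 CPM of Rrm1 in cKO and 36.1 CPM in WT (0.31) and 21.6 CPM of Rrm2 in cKO and 18.6 CPM in WT (0.22). Tyms, thymidylate synthase, had 38.03 CPM in cKO and 31.1 CPM in WT (0.29), and Tk1, thymidine kinase, had 11.9 CPM in cKO and 10.4 CPM in WT (0.21). On the lagging strand, Fen1, the nuclease that trims the flap between fragments, had 18.2 CPM in cKO and 13.7 CPM in WT (0.41, 0.29 to 0.52). Lig1, the ligase that seals them, had 34.6 CPM in cKO and 32.0 CPM in WT (0.11, 0.03 to 0.19).

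All 6 genes of chromatin and methylation at the fork were higher in cKO (median log2 ratio 0.28). Hells, a chromatin remodeller needed for DNA methylation, had 43.1 CPM in cKO and 32.3 CPM in WT (log2 0.42, 0.34 to 0.49), the second highest ratio among measured members. Uhrf1, which brings the maintenance methyltransferase to new DNA, had 26.7 CPM in cKO and 20.5 CPM in WT (0.38, 0.29 to 0.47), and Dnmt1, that methyltransferase, had 39.7 CPM in cKO and 33.1 CPM in WT (0.26, 0.19 to 0.34). Pclaf, a protein that binds the clamp, had 68.0 CPM in cKO and 55.3 CPM in WT (0.30, 0.24 to 0.35). The histone chaperone subunits Chaf1a and Chaf1b were nearer to equal, at 0.15 and 0.12. Of the G1/S regulators, Slbp, which binds histone mRNA, had 57.6 CPM in cKO and 56.3 CPM in WT (0.03, -0.03 to 0.09). The E cyclins Ccne1 (9.88 CPM in cKO and 9.003 CPM in WT) and Ccne2 (10.3 CPM in cKO and 9.59 CPM in WT) had log2 ratios of 0.13 and 0.10 with intervals that include 0. Mybl2, a transcription factor of the late cell cycle genes, had 9.80 CPM in cKO and 7.26 CPM in WT (0.43, 0.28 to 0.59). Members with an E2F motif in the promoter window had a median log2 ratio of 0.31 (n = 12) and those without one 0.26 (n = 23), with overlapping ranges of -0.05 to 0.42 and 0.03 to 0.51.

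Genes around the set were given by lists taken from the same pathways. Of 42 further origin and replication genes, 31 were measured and 25 were higher in cKO (80.6%, against 44.6% of all genes). Higher by 1.2-fold or more were 4 (4.74% of all genes), and the median log2 ratio was 0.18. Clspn and Tipin, of the checkpoint at the fork, and Topbp1, which acts in firing and checkpoint, led. Clspn had 16.4 CPM in cKO and 13.0 CPM in WT (0.34), Tipin had 21.0 CPM in cKO and 16.9 CPM in WT (0.31) and Topbp1 had 41.96 CPM in cKO and 33.9 CPM in WT (0.31). The lowest were Orc3, of the origin recognition complex, at -0.06, Pold4, a small polymerase delta subunit, at -0.06 and Rfc1, the large clamp loader subunit, at -0.05, all with intervals that include 0. Of the G1 cyclins, their kinases and the E2F and RB family factors, 10 of 14 measured genes were higher in cKO (71.4%, against 44.6% of all genes). Their median was 0.08, beside -0.02 for all genes, and 8 had intervals above 0 and 4 below it. Those under 10 CPM were E2f7 (0.48), E2f8 (0.36), E2f1 (0.18), E2f6 (0.10) and E2f2 (0.02). Tfdp1, the partner of E2F proteins, had 58.8 CPM in cKO and 47.7 CPM in WT (0.30, 0.24 to 0.36), followed by Rbl1 (0.19) and Rb1 (0.14). Ccnd2, a D-type cyclin, had 270 CPM in cKO and 309 CPM in WT (-0.19, -0.22 to -0.17), E2f3 had 57.1 CPM in cKO and 65.3 CPM in WT (-0.19) and Cdk6 had 115 CPM in cKO and 129 CPM in WT (-0.17). E2f4, the factor named in the series title, had 28.2 CPM in cKO and 26.3 CPM in WT (0.10, 0.02 to 0.19). Among inhibitors of cyclin-dependent kinases 3 of 5 measured genes were higher in cKO (60%, against 44.6% of all genes). Cdkn1c (p57) had 84.9 CPM in cKO and 72.2 CPM in WT (0.23, 0.18 to 0.28), while Cdkn1a (p21) had 241 CPM in cKO and 269 CPM in WT (-0.16, -0.18 to -0.13). None of the measured genes passed 1.5-fold, and of those under 10 CPM Recql4, a helicase of origin firing, had 1.71 CPM in cKO and 1.11 CPM in WT (0.62, 0.23 to 1.02). All 37 measured G2 and M phase genes were higher in cKO (44.6% of all genes), with a median of 0.24.

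Mitotic epithelial-like cells were set apart by 42 G2 and M phase genes, none of them a member, which took 0.3% or more of the UMIs of a cell with at least 3000 UMIs. There were 156 such cells in cKO (9.68%, exact 95% interval 8.28 to 11.2) and 233 in WT (8.86%, 7.80 to 10.0), beside 1456 other cells in cKO and 2396 in WT, and 385 cKO and 317 WT cells were too shallow to call. Between 0.25% and 0.35%, close to the gate, lay 41 cKO and 77 WT cells. Mitotic cells were deeper than the others, with medians of 68339 UMIs in cKO and 48215 UMIs in WT, against 36251 UMIs in other cKO cells and 28385.5 UMIs in other WT cells. They held 40.1% of the members' UMIs in cKO and 31.9% in WT, from 16.2% of all epithelial-like UMIs in cKO and 12.6% in WT.

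Every member was higher in mitotic than in other cells of the same library, in both libraries, with median log2 ratios of 1.77 in cKO and 1.75 in WT, beside 0.01 for all genes in each. All 42 were at least 1.5-fold higher in each library, as 12.5% of all genes were in cKO and 11.2% in WT, and 39 in cKO and 37 in WT were at least 2-fold higher (5.64% of all genes in cKO and 5.45% in WT). Pclaf stood first, with 272 CPM in mitotic and 29.0 CPM in other cKO cells, and 256 CPM in mitotic and 26.6 CPM in other WT cells (log2 3.23 in cKO and 3.27 in WT). Of the nucleotide supply genes, those next in the order were Tk1 at 3.14 in cKO and 3.02 in WT, Rrm2 at 2.88 in cKO and 2.57 in WT and Rrm1 at 2.40 in cKO and 2.51 in WT, with Cdc45 at 2.67 in cKO and 2.44 in WT between them. Tyms (2.34 in cKO and 2.21 in WT) also lay above the members' medians, and Dut (1.80 in cKO and 1.92 in WT) lay near them. At the other end were Rfc3 (0.79 in cKO and 0.71 in WT), Gins4 (0.95 in cKO and 0.71 in WT), Slbp (0.99 in cKO and 0.75 in WT), Mcm4 (1.25 in cKO and 1.01 in WT) and Rfc2 (1.27 in cKO and 1.02 in WT). Rfc3, lowest in cKO and just above Gins4 in WT, had 46.9 CPM in mitotic and 27.2 CPM in other cKO cells, and 47.7 CPM in mitotic and 29.1 CPM in other WT cells. By the mean of both libraries Pclaf stood first and Rfc3 last.

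**Figure D2:**
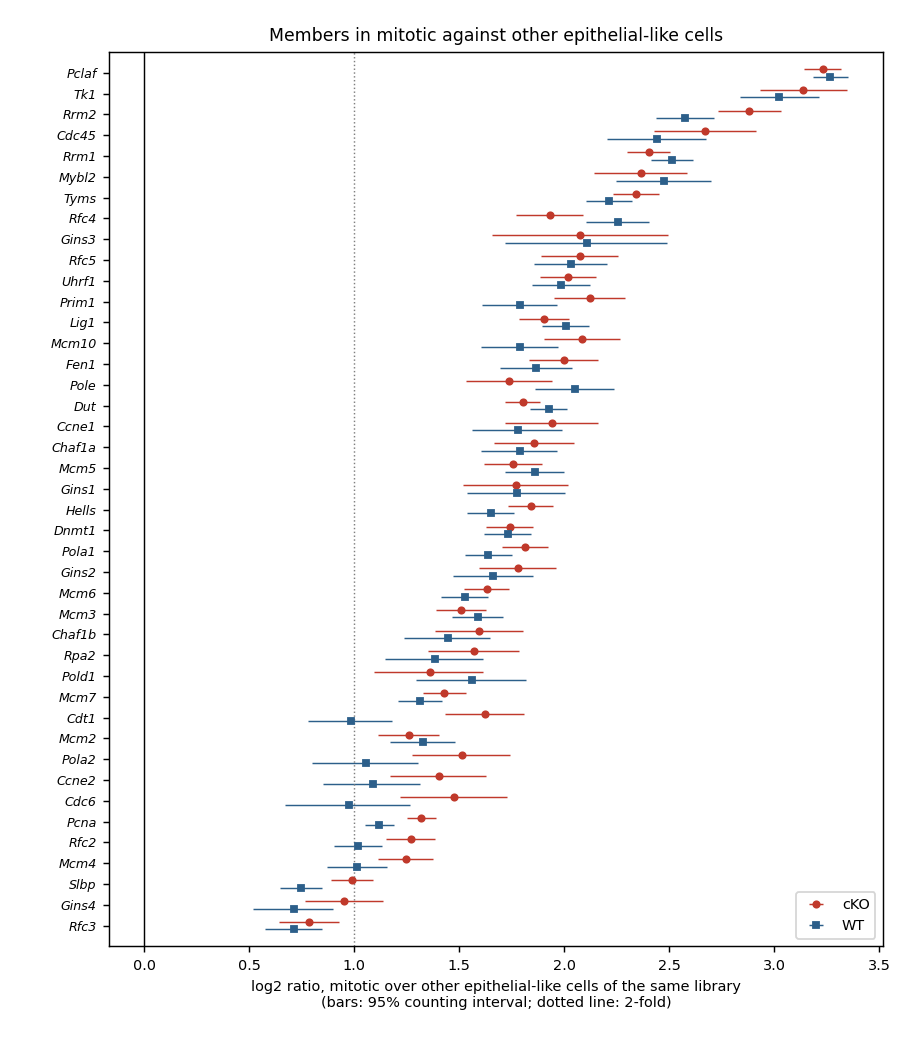
Log2 ratio of mitotic over other epithelial-like cells for each member, in cKO (circles) and WT (squares), with 95% counting intervals and a dotted line at 2-fold. All 42 members lie above 0 in both libraries, from about 0.7 for Rfc3 to 3.2 for Pclaf.

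Within mitotic cells the members' sum was 2844 CPM in cKO and 2461 CPM in WT (log2 0.21, 0.19 to 0.23), and in other cells 823 CPM in cKO and 757 CPM in WT (0.12, 0.10 to 0.14). The summed difference was smaller on each side of the gate than over the epithelium as a whole, and outside the gate it was not general. There the sum was equal in Y-linked cells (log2 0.00, -0.02 to 0.03) and lower in cKO in 6 of the 9 clusters, and with each cell weighted equally the median of the members was 0.060. Inside the gate the clusters differed in direction too, from a log2 ratio of the sum of 0.50 in cluster 1 to -0.79 in cluster 17. In mitotic cells 41 members were measured and 36 were higher in cKO (45.8% of all genes), and the median log2 ratio was 0.22. The highest ratios there were of genes of licensing and origin firing and of polymerase and primase, but these roles were not uniform. Measured members ranged from -0.02 to 0.70 in the first role and from -0.19 to 0.51 in the second. The clamp and the chromatin roles each reached 0.45. Cdc6 had 17.5 CPM in cKO and 10.7 CPM in WT (0.70, 0.37 to 1.04), the only member past 1.5-fold (1.35% of all genes), Cdt1 had 33.7 CPM in cKO and 23.1 CPM in WT (0.54, 0.31 to 0.77), Pola2, the regulatory subunit of polymerase alpha, had 21.3 CPM in cKO and 15.0 CPM in WT (0.51) and Prim1 had 47.4 CPM in cKO and 34.0 CPM in WT (0.48). At 1.2-fold 17 members were higher, against 7.69% of all genes. Lower in cKO, with intervals that include 0, were Pole at 28.7 CPM in cKO and 32.8 CPM in WT (-0.19), Rfc4 (-0.07), Lig1 (-0.06), Rfc3 (-0.02) and Gins1 (-0.02). The G2 and M phase genes, on which the gate was set, had a median of -0.02 in these cells. The 8 neutrophil markers summed to 248.5 CPM in cKO and 48.8 CPM in WT mitotic cells, and their part in these values was not tested.

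In other cells 26 members were measured and 21 were higher in cKO (43.1% of all genes), and the median log2 ratio was 0.17. Dut had 51.8 CPM in cKO and 37.8 CPM in WT (0.46, 0.38 to 0.53), Mcm2 had 20.9 CPM in cKO and 16.5 CPM in WT (0.34) and Mcm5 had 18.6 CPM in cKO and 15.4 CPM in WT (0.27), and these 3 passed 1.2-fold (4.25% of all genes). Rfc2, at 32.3 CPM in cKO and 35.2 CPM in WT (-0.13, -0.21 to -0.04), and Rfc3, at 27.2 CPM in cKO and 29.1 CPM in WT (-0.10), were lower with intervals below 0. Cdt1 had 11.0 CPM in cKO and 11.7 CPM in WT there (-0.10, -0.25 to 0.05), unlike in mitotic cells. No member had intervals on opposite sides of 0 in mitotic and other cells.

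**Figure D3:**
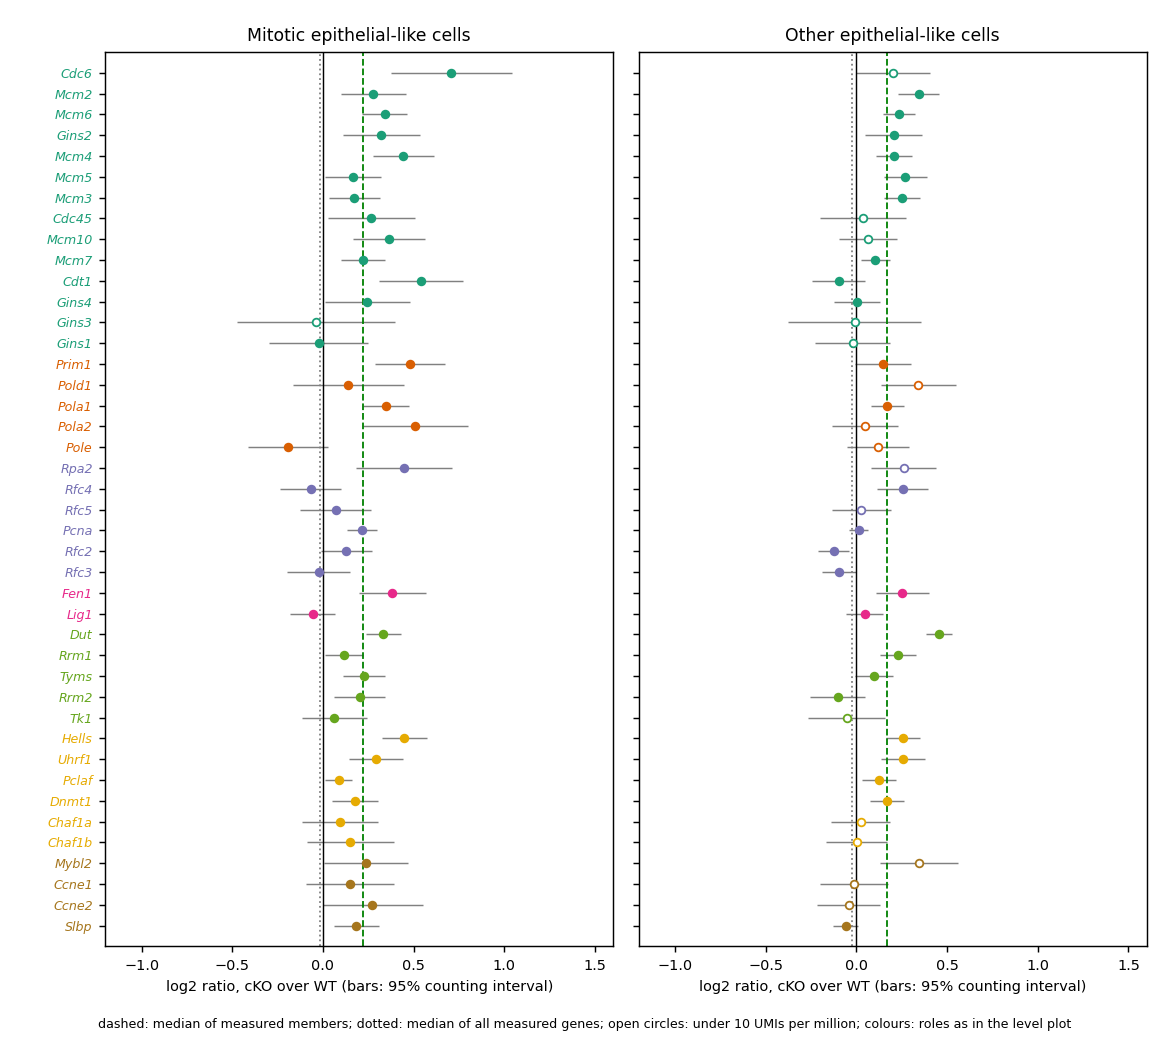
Log2 ratio of cKO over WT for each member in mitotic (left) and other (right) epithelial-like cells, with 95% counting intervals, grouped by role. The dashed median of the measured members lies at 0.22 on the left and 0.17 on the right, against -0.02 for all genes on both sides.

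Cells were also placed in 6 bins by the share of their UMIs from the G2 and M phase genes, with edges at 0.02, 0.05, 0.1, 0.3 and 0.6% that were chosen after the data were seen. The members' sum was 407, 850, 1793, 1942, 2807 and 2902 CPM from the lowest to the highest bin in cKO, and 440, 643, 1575, 1868, 2362 and 2622 CPM in WT. It was thus higher in cKO in every bin but the lowest, where 856 cKO and 1273 WT cells lay. The bins differed in depth, and the median in the third bin was 31277.5 UMIs in cKO and 7645 UMIs in WT. Pclaf had 2.14, 13.9, 66.0, 142, 240 and 320 CPM over the bins in cKO, and 3.16, 10.7, 64.4, 137, 235 and 289 CPM in WT. Ccne2 and Cdc6 were lower in the highest bin than in earlier ones. Ccne2 had 30.01 CPM in the fifth bin and 8.30 CPM in the highest in cKO, 27.7% of its peak, and in WT it peaked at 23.6 CPM in the fourth bin and had 58.1% of that in the highest. Cdc6 had 49.4% of its peak in the highest bin in cKO and 57.9% in WT. In cKO 22 members peaked in the fifth bin and 19 in the highest, in WT 8 peaked in the fifth and 28 in the highest, and 24 members peaked in the same bin in both.

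**Figure D4:**
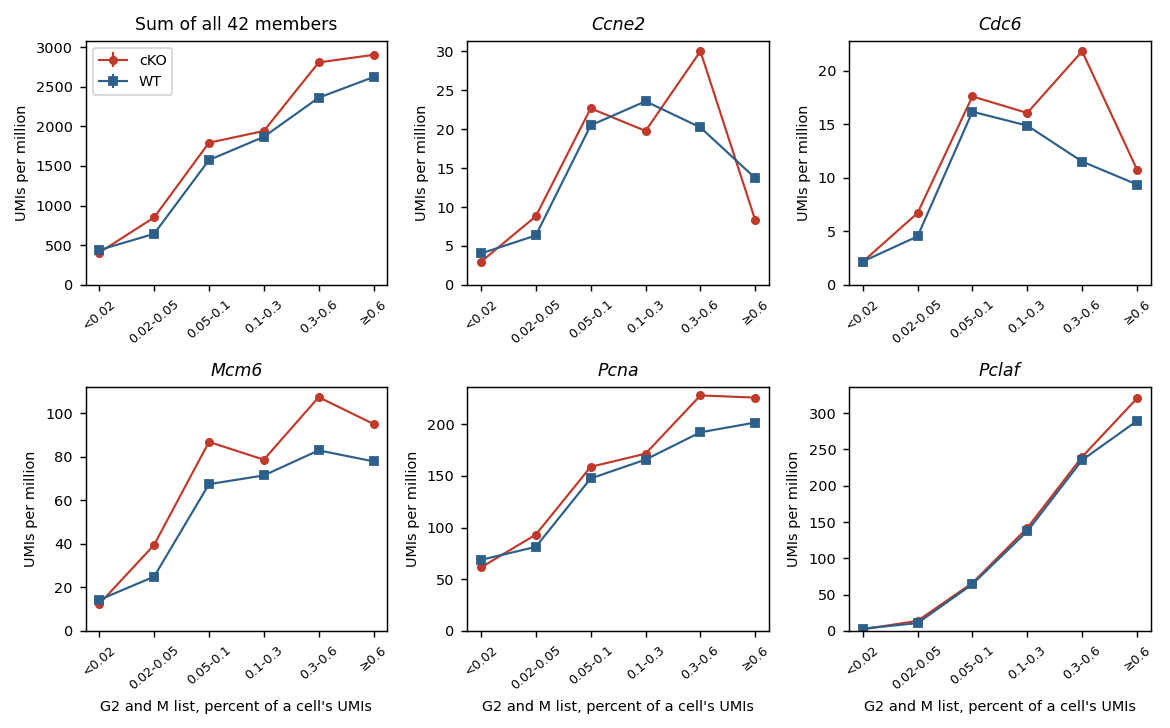
CPM of the 42 members together and of 5 of them in epithelial-like cells binned by the percent of a cell's UMIs from G2 and M phase genes, in cKO (circles) and WT (squares). The sum and Pclaf climb to the top bin, whereas Ccne2 and Cdc6 are lower there than in earlier bins. Panels were chosen after the data were seen.

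The epithelial-like cells formed 9 clusters, built without 152 cell cycle genes, the members among them. Genes outside that list whose levels followed the members' sum, such as Tuba1b and Hmgb2, were not left out. Cycling can therefore still have shaped the clusters. The members were most abundant in cluster 5, which had Cldn2 and Cftr among its leading genes, with 1773 CPM in cKO and 1655 CPM in WT (log2 0.10), and in cluster 2, led by Mptx2, with 1647 CPM in cKO and 1330 CPM in WT (0.31). They were least abundant in cluster 3, led by Ly6m, Krt20 and Saa1, genes of surface epithelium among them, with 497 CPM in cKO and 508 CPM in WT (-0.03). Cluster 1, with Cntn3 among its leading genes, had 604 CPM in cKO and 517 CPM in WT (0.22), and cluster 13, with Ang4, Lyz1 and Reg4, had 866 CPM in cKO and 780 CPM in WT (0.15). In cluster 4, led by Unc5d and with the stem cell receptor Lgr5 among its leading genes, the order was reversed, at 752 CPM in cKO and 824 CPM in WT (-0.13). Cluster 17, with Adh1, Slc5a8 and Aqp4, had 989 CPM in cKO and 1219 CPM in WT (-0.30), and the shallow clusters were lower in cKO too, cluster 8 with 977 CPM in cKO and 1059 CPM in WT (-0.12) and cluster 7 with 533 CPM in cKO and 693 CPM in WT (-0.38). The members' sum was therefore higher in cKO in 4 of the 9 clusters, or in 7 of 9 with each cell weighted equally. Without mitotic cells it was higher in 3, clusters 1 (0.12), 2 (0.10) and 5 (0.05).

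Clusters 2 and 5 held a larger part of the epithelial-like UMIs in cKO, and by cells the gaps were smaller. Cluster 2 took 23.8% of epithelial-like UMIs in cKO and 18.4% in WT, and cluster 5 took 22.1% in cKO and 18.1% in WT, while cluster 4 took 7.12% in cKO and 13.0% in WT. Of epithelial-like cells, cluster 2 held 15.4% in cKO and 13.7% in WT, and cluster 5 held 13.7% in cKO and 12.2% in WT. Cluster 4 held 9.71% of the cells in cKO and 16.5% in WT. Leaving out cluster 2 brought the log2 ratio of the sum from all epithelial-like cells to 0.16, and leaving out any other single cluster kept it between 0.21 and 0.27. In cluster 2 the members' sum in mitotic cells was 3687 CPM in 50 cKO cells and 2861 CPM in 55 WT cells, and in cluster 5 it was 3004 CPM in 53 cKO cells and 2536 CPM in 79 WT cells. The other clusters held fewer mitotic cells, and their directions were mixed. Their log2 ratios in mitotic cells were 0.50 in cluster 1, 0.25 in cluster 3 and -0.0037 in cluster 8. They were -0.18 in cluster 4, -0.21 in cluster 7, -0.55 in cluster 13 and -0.79 in cluster 17. Dut was higher in cKO in both, with 106 CPM in cKO and 74.3 CPM in WT in cluster 2, and 102 CPM in cKO and 88.8 CPM in WT in cluster 5. It was also higher in cluster 3, at 59.3 CPM in cKO and 38.7 CPM in WT, where the members' sum was not. Mcm6 had 57.1 CPM in cKO and 41.3 CPM in WT in cluster 2, and 16.4 CPM in cKO and 16.0 CPM in WT in cluster 3.

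The sexes were unequal in the pools, and the difference between the libraries was not alike in them. In cells with Xist and no Y-linked UMIs the members' sum was 1171 CPM in 319 cKO cells and 812 CPM in 925 WT cells (log2 0.53), and in cells with Y-linked UMIs and no Xist it was 1164 CPM in 1152 cKO cells and 1075 CPM in 1103 WT cells (0.11). Outside mitosis the values were 984 CPM in cKO and 625 CPM in WT (0.66) in the Xist cells, and 812 CPM in cKO and 809 CPM in WT (0.00) in the Y-linked cells. Cluster 5 was the only one with 50 or more cells of each sex in both libraries. In it the Xist cells had 2123 CPM in cKO and 1323 CPM in WT (0.68) and the Y-linked cells 1782 CPM in cKO and 1930 CPM in WT (-0.11). In Y-linked cells the other clusters with 50 or more cells had log2 ratios of 0.18 (cluster 1), 0.34 (cluster 2), 0.35 (cluster 3), -0.46 (cluster 4) and -0.94 (cluster 7), so their directions were mixed. The labels do not give the number or sex of the mice in a pool, so sex, mouse and genotype cannot be told apart.

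Per cell, the members took a median of 0.0466% of UMIs in cKO and 0.0469% in WT epithelial-like cells, which is nearly equal. In mitotic cells the medians were 0.219% in cKO and 0.187% in WT, and in other cells 0.0415% in cKO and 0.0424% in WT. A cell was called replication-high when it held 4 or more member UMIs at a depth of 3000, a cut that under 5% of neutrophil-like cells, which do not divide, reached. By exact thinning to that depth 21.3% (19.3 to 23.4) of 1612 cKO and 19.3% (17.8 to 20.9) of 2629 WT epithelial-like cells were replication-high, a difference of 1.999 percentage points whose interval, -0.52 to 4.56, includes 0. It was 7.13 points in the Xist cells, -0.20 points in the Y-linked cells and 0.24 points with cells gated one by one. Without thinning the shares were 81.6% in cKO and 76.8% in WT. The background in neutrophil-like cells was 2.97% in cKO and 4.96% in WT, with median depths of 4935 UMIs in cKO and 4151 UMIs in WT, and the epithelial-like cells had medians of 37543 UMIs in cKO and 29002 UMIs in WT. The share in mitotic cells was 76.6% in cKO and 72.5% in WT. It was 46.3% in cKO and 47.2% in WT in cluster 5, against 5.86% in cKO and 5.32% in WT in cluster 3. The order of the clusters was therefore far wider than any difference between the libraries within them.

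Outside the epithelium 6 named classes had 50 or more cells in both libraries, and the members were lower in cKO in these 6. Classes under that number were mixed. Endothelial-like cells (54 in cKO and 48 in WT) had 718 CPM in cKO and 582 CPM in WT (log2 0.30, 0.04 to 0.57). Plasma-like cells (27 in cKO and 59 in WT) had 779 CPM in cKO and 701 CPM in WT (0.15, -0.03 to 0.33). B-like cells (319 in cKO and 46 in WT) had a log2 ratio of -0.16 (-0.36 to 0.04). Erythroid-like cells (17 in cKO and 49 in WT) had -1.09 (-1.68 to -0.59), with 35 of the WT cells in a cluster without cKO cells. The epithelial markers summed to 2207 CPM in cKO and 22444 CPM in WT erythroid-like cells, so the libraries did not hold like cells under this name. In the erythroid-like cluster with cells of both libraries, 17 in cKO and 14 in WT, the ratio was 0.59 (-0.40 to 1.76). The unnamed cells, whose epithelial markers were near the epithelial-like level, had 1580 CPM in cKO and 1173 CPM in WT (0.43). T-like cells, in which 398 cKO and 288 WT cells were counted, had 1070 CPM in cKO (1035 to 1105) and 1148 CPM in WT (1106 to 1191), a log2 ratio of -0.10. Macrophage and monocyte-like cells had 573 CPM in cKO and 793 CPM in WT (-0.47), dendritic-like cells 739 CPM in cKO and 1262 CPM in WT (-0.77), mast and basophil-like cells 771 CPM in cKO and 1339 CPM in WT (-0.80) and fibroblast-like cells 598 CPM in cKO and 1012 CPM in WT (-0.76). Neutrophil-like cells were at the bottom of the order, with 303 CPM in cKO and 374 CPM in WT (-0.30). Gated one by one on their markers, the cells gave -0.22 in the macrophage and monocyte class, -0.54 in neutrophils and -0.39 in fibroblasts. They gave -0.17 in T cells and -0.76 in mast cells and basophils, and the dendritic class had no value under this gate. Of the cells named fibroblast-like by cluster the gate agreed on 63 of 83 in cKO and 96 of 187 in WT. For dendritic-like cells it agreed on 43 of 73 in cKO and 33 of 51 in WT. For macrophage and monocyte-like cells it agreed on 217 of 334 in cKO and 212 of 285 in WT. In T-like cells 13 of 32 measured members were higher in cKO (48.4% of all genes), so the set did not stand apart there, with medians of -0.02 for the members and -0.01 for all genes. In macrophage and monocyte-like cells 2 of 25 were higher (43.2%), in dendritic-like cells 2 of 39 (44.7%), in mast and basophil-like cells 3 of 34 (43%), in fibroblast-like cells 4 of 34 (40.9%) and in neutrophil-like cells 3 of 11 (27.5%). The neutrophil-like members, 27.3% higher, were thus at the background. The medians in these 5 classes were -0.61, -0.95, -0.84, -0.89 and -0.46, beside -0.05, -0.06, -0.11, -0.15 and -0.28 for all genes.

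Single members varied within these classes. In dendritic-like cells Pclaf had 49.1 CPM in cKO and 137 CPM in WT, and Dut had 31.2 CPM in cKO and 81.9 CPM in WT. Mcm6 had 19.2 CPM in cKO and 50.1 CPM in WT fibroblast-like cells, while Pcna, at 99.3 CPM in cKO and 104 CPM in WT, was close to equal. In T-like cells Mcm6 had 83.6 CPM in cKO and 74.3 CPM in WT. The 10 epithelial markers were also lower in cKO in all 6 classes, with 949 CPM in cKO and 1534 CPM in WT T-like cells, 1584 CPM in cKO and 5618 CPM in WT fibroblast-like cells, 2328 CPM in cKO and 3687 CPM in WT in mast and basophil-like cells, 2000 CPM in cKO and 2764 CPM in WT in dendritic-like cells, 775 CPM in cKO and 1216 CPM in WT in macrophage and monocyte-like cells and 1529 CPM in cKO and 2695 CPM in WT in neutrophil-like cells. Their part in the members' values was not tested. Replication-high cells were 8.44% of 46 cKO and 40.4% of 130 WT fibroblast-like cells, a difference of -32.0 points (-42.9 to -17.3), and 24.1% of cKO and 25.2% of WT T-like cells.

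**Figure D5:**
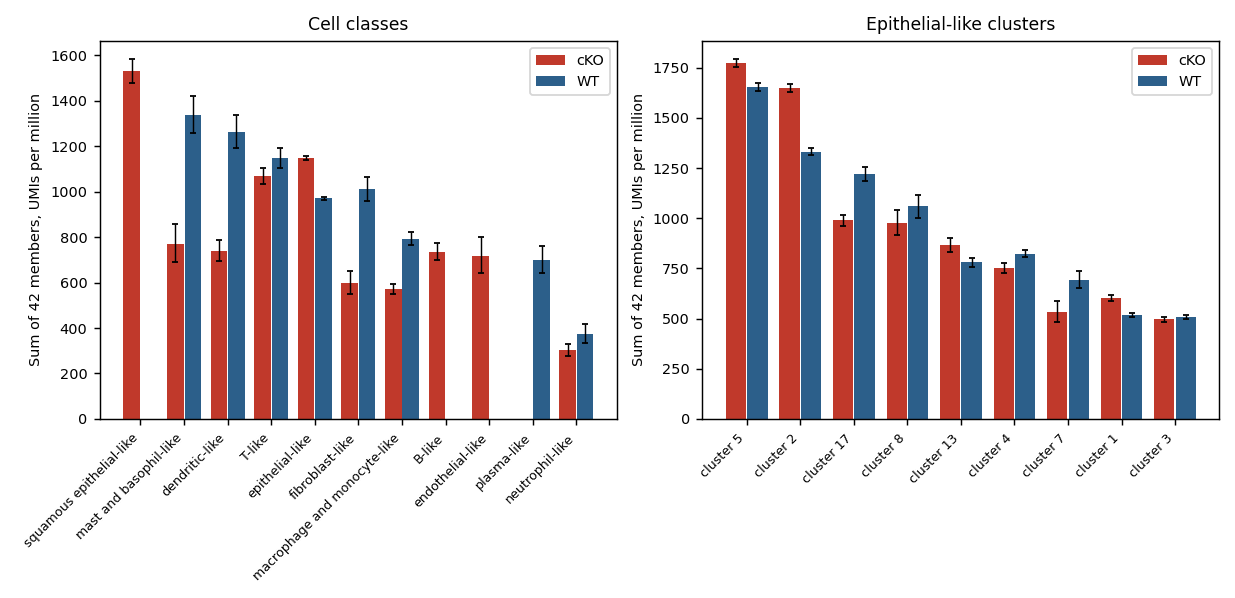
Summed CPM of the 42 members by cell class (left) and epithelial-like cluster (right), in cKO and WT, with exact 95% Poisson intervals, for groups of 50 or more cells in a library. Squamous epithelial-like cells are at the high end and neutrophil-like cells at the low end of the classes, and clusters 5 and 2 lead the epithelial-like clusters.

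The highest level of any class was in squamous epithelial-like cells, with 1532 CPM (1479 to 1585) in 58 cells of a single cluster that held cKO cells only, and so cannot be told apart from that library. B-like cells were not among the 6 classes compared, since WT held 46, and the 319 cKO cells had 737 CPM. Within T-like cells the cluster led by Themis had 1331 CPM in cKO and 1360 CPM in WT, and the cluster with Foxp3 and Il2ra, genes of regulatory T cells, had 786 CPM in cKO and 993 CPM in WT.

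Over the 9 epithelial-like clusters in 2 libraries, 18 points, the non-member genes at 50 CPM or more whose log2 level was most like the members' sum were Tuba1b, an alpha tubulin, with a Pearson r of 0.96, Hmgb2, a chromatin protein, with 0.93, Sae1, of the SUMO-activating enzyme, with 0.92, Smc4, a condensin subunit, with 0.92 and Tfdp1 with 0.92. The points share libraries and clusters and are no replicates, so these values only describe.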

How the data were processed

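Droplet single-cell RNA sequencing (10x Genomics) gave 1 library for each genotype. The deposited values are raw UMI counts per gene and barcode, and per the file headers Cell Ranger 7.2.0 made them. Seurat 3.0 and the genome build mm10 are named in the submitters' processing notes. Sources used here do not say which filters the authors applied.

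Barcodes under 500 genes or over 25% mitochondrial UMIs were left out, as were doublets by Scrublet score (0.8% per 1000 barcodes, 362 in cKO and 714 in WT marked). Cells were clustered with scanpy 1.11.5 and leidenalg 0.10.2 (2000 variable genes, 30 components, 20 neighbours, resolution 1), without 152 cell cycle genes, histone, immune receptor and sex-linked genes and Mtch2. Clusters were named from marker lists of 15 classes, by a scoring rule set after the clusters were seen. Gene coordinates are GENCODE's for GRCm38 (32158 of 32285 genes matched).

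Counts were summed per library and class, scaled to 1000000 (CPM), and compared as log2 ratios (cKO over WT) with 0.5 counts added to each. CPM are not divided by gene length, so levels were compared only within a gene, except that the naming rule also ranked members by CPM. Intervals are 95% and exact (Poisson for levels, conditional binomial for ratios, Clopper-Pearson for shares), with square-and-add for differences of shares. Computations used Python 3.11.15, numpy 2.4.6, scipy 1.17.1 and pandas 2.3.3. The ratios, their intervals and the thinning were tested on simulated counts, and the other steps were not. Named genes are the members of extreme level, ratio or mitotic enrichment and the 3 highest and lowest ratios of each other list. Members, lists and rules were chosen with earlier results of these data known.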

Additional observations from a re-analysis of the deposited data

Results flagged for a closer look

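The difference between the libraries in the members' sum had opposite signs in epithelial-like cells and in the 6 other classes with 50 or more cells in both libraries, and this contrast between classes was not tested, with 1 library per genotype. Against a log2 ratio of cKO over WT of 0.24 in epithelial-like cells, the ratio was -0.10 in T-like, -0.47 in macrophage and monocyte-like, -0.30 in neutrophil-like, -0.77 in dendritic-like, -0.80 in mast and basophil-like and -0.76 in fibroblast-like cells. In neutrophil-like cells the share of members higher in cKO, 27.3%, was that of all genes, 27.5%. Classes under that number were mixed, as the ratio was 0.30 in endothelial-like, 0.15 in plasma-like, -0.16 in B-like and -1.09 in erythroid-like cells. In the erythroid-like cluster with cells of both libraries it was 0.59 (-0.40 to 1.76). The epithelial markers were also lower in cKO in the first 6 classes, with 949 CPM in cKO and 1534 CPM in WT in T-like cells, and their part was not tested.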

How the results depend on the processing

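No paired analysis was possible because each genotype has 1 library. Every alternative planned was run. For the members' sum in epithelial-like cells (log2 0.24), scaling without mitochondrial, ribosomal protein, haemoglobin and immunoglobulin genes gave 0.28, median-of-ratios size factors 0.26, each cell weighted equally 0.14, equal weights of the 9 clusters 0.0092, Xist cells 0.53, Y-linked cells 0.11, cells gated one by one 0.21 and doublets kept 0.20. Alternatives added after the data were seen gave 0.15 with the WT mitotic share of UMIs in both libraries, and 0.21, 0.16, 0.27 and 0.27 without cluster 1, 2, 3 or 17. Members higher in cKO, 32 of 34, became 16 with equal cluster weights. Their median of 0.28 became -0.00064 with equal cluster weights, 0.59 in Xist cells, 0.13 in Y-linked cells and 0.15 with the WT mitotic share. In other cells the median of 0.17 became 0.75 in Xist and 0.0092 in Y-linked cells, and 0.060 with each cell weighted equally. The mitotic over other median, 1.77 in cKO and 1.75 in WT, was 1.58 in cKO and 1.44 in WT with the gate at 0.5%, 1.45 in cKO and 1.49 in WT without Ccna2, Top2a, Mki67 and Cdk1, and 2.09 in cKO and 1.94 in WT with each cell weighted equally, and 1.43 in cKO Xist cells. The difference in replication-high share, 1.999 points, was 7.13 in Xist and -0.20 in Y-linked cells. With each cell weighted equally, 7 of 9 clusters in place of 4 were higher in cKO. The cause of these shifts was not tested. Of all the alternative values, 66 were classed as unchanged, the 0.060 among them, 28 as moved and 2 as reversed. The reversed ones were the -0.00064 and the -0.20. Depth limits the rarer classes, with 53 mast and basophil-like cells in cKO and 51 dendritic-like cells in WT.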
